A study of Mus musculus with 6 samples.

Results

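The 38 genes described here encode the enzymes, transporters and regulators through which the liver takes up, burns, makes and stores glucose: hexose transport and phosphorylation, glycolysis to lactate, gluconeogenesis, and glycogen synthesis and breakdown. They were chosen by symbol as a pathway, and every one of the 38 was found among the 50600 genes of the deposited tables. Transcripts were measured by RNA sequencing of whole liver in 3 Dicer LKO samples and 3 controls. The Dicer LKO mice carried loxP-flanked Dicer alleles together with Alb-cre, a Cre recombinase driven by the promoter of the albumin gene, active in hepatocytes and their precursors. Both groups were homozygous for the loxP-flanked alleles, and the controls lacked the Cre. All were C57BL/6 and 1 month old. Whole liver also holds endothelial, stellate and blood-derived cells, in which the albumin promoter is silent. Dicer cuts microRNA precursors into mature microRNAs, and the comparison asks how liver transcripts differ when hepatocytes lack it.

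Hepatocytes take glucose in and release it through the same carrier, Slc2a2, and send it one way or the other by opposing steps, each with an enzyme of its own. Glycolysis runs through hexokinases, phosphofructokinase and pyruvate kinase. Gluconeogenesis bypasses these steps with Pcx, Pck1, Fbp1 and G6pc, and glycogen is built by Gys2 and Gbe1 and broken down by Pygl. Many steps have a liver isozyme and others that serve muscle, brain, blood cells or the fetus, so the isozyme in use is a property of the tissue.

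The libraries held 22257541 to 25049749 counts in Dicer LKO and 14141973 to 22152506 in controls. Dicer1 was at 28.9, 31.2 and 24.4 CPM across Dicer LKO samples and 42.5, 69.3 and 56.1 CPM in the controls, lower in every Dicer LKO library than in any control, in counts that span the gene and are summed over all cell types. Control replicate 3 was the shallowest library and stood apart: 17 skeletal muscle markers summed to 2856 CPM there, against 0.429 to 1.27 CPM in the Dicer LKO libraries and 1.13 and 2.02 CPM in control replicates 1 and 2. None of the 17 passed the filter on low counts, and Pvalb and Tnnc2 were at 0 in those 5 libraries. Results that rest on this library are therefore given with and without it. The hepatocyte markers identified the tissue, with albumin (Alb) alone at 45460.2 to 51059 CPM in Dicer LKO and 24333 to 52052 CPM in controls. In whole tissue, fewer cells of a type and less RNA per cell cannot be told apart.

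None of the 38 genes passed the edgeR test between Dicer LKO and control samples. Of the 38 members, all of which passed the filter on low counts, 0 had an adjusted p under 0.05 by edgeR's quasi-likelihood test, where 1.29% of the 14314 genes tested did. At an unadjusted p under 0.05 there were 7 members (18.4%), against a background of 21.0% of genes. Positive log2 fold changes were found for 21 members and negative ones for 17, and the median was 0.13 on the log2 scale beside −0.013 over all genes tested. The smallest adjusted p among them was 0.104, that of Pygb. DESeq2, a different count test that called 8.1% of the 14314 genes, called 2 members, Pygb (adjusted p = 0.0290) and Ldha (adjusted p = 0.0437), both higher in Dicer LKO. It gave no adjusted p for Eno3 and Ldhb.

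The groups did not overlap for 9 members. In 7 of these, Pfkfb1, Pygb, Pfkp, Tpi1, Pfkl, Hk1 and Pcx, every Dicer LKO library lay above every control (18.4% of members, with a background of 12.7% of genes). In the other 2, Pklr and Gckr, every Dicer LKO library lay below every control (5.26%, with a background of 15.4%). Both directions together came to 23.7% of members, beside 28.0% of all genes. In TPM, separation remained for 4 of the 9, Pfkfb1, Pfkl, Pklr and Gckr, while the groups of Pygb, Pfkp, Tpi1, Hk1 and Pcx overlapped. The share of all genes that separated in TPM was not computed. On the CPM scale the members' share of non-overlapping genes was thus no larger than that of the transcriptome. Absolute log2 fold changes were under 0.5 for 24 members and 1 or more for 5. Of those 5, Eno3, Ldhb and Pfkm had a negative value that came mostly from control replicate 3, Slc16a3 had the lowest TPM of the members, and Pklr was the single member with both a change of that size and no overlap. A missed threshold does not show that a gene is unchanged: the 95% interval of the log2 fold change lay within −1 and 1 for 18 members and reached past −1 or 1 for 20. Without control replicate 3 no member was called either, where 0.157% of genes were.

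**Figure D1:**
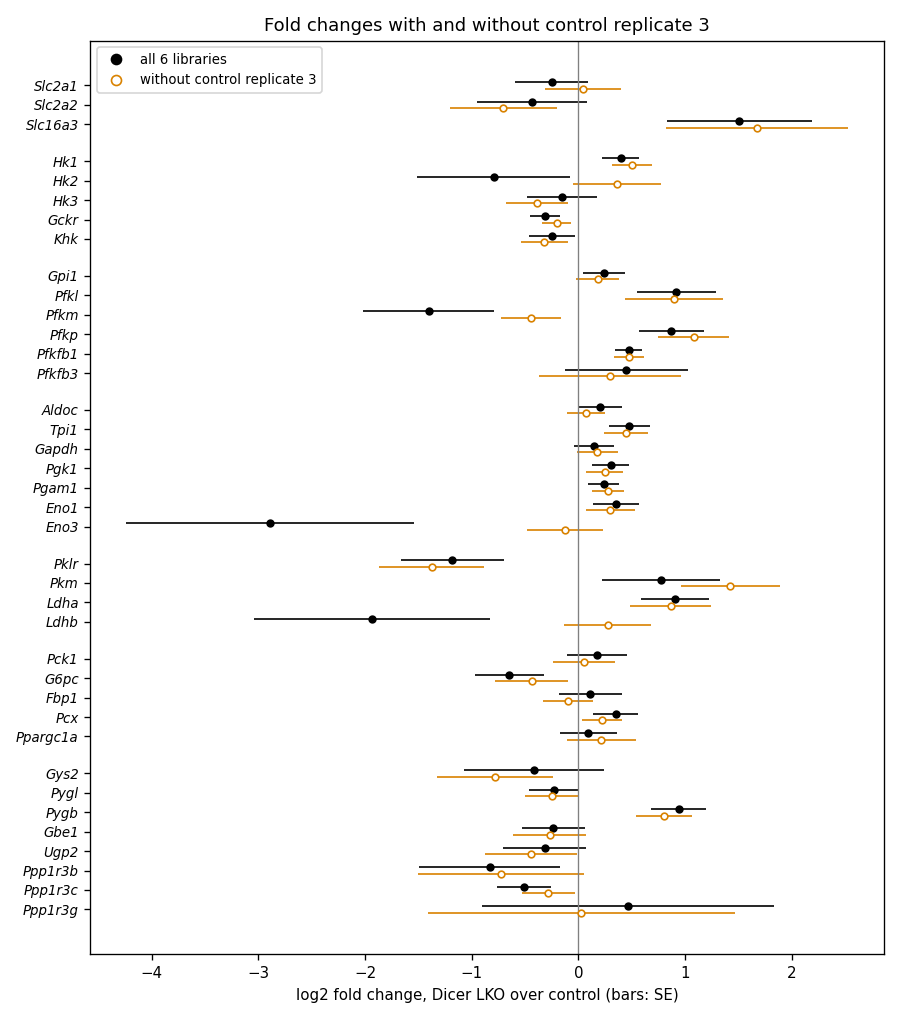
Log2 fold change of each of the 38 genes, Dicer LKO over control, with its SE as a horizontal bar, from all 6 libraries (black) and without control replicate 3 (orange, open). Eno3, Ldhb and Pfkm move towards 0 without that library, Eno3 to −0.12, while Pfkfb1 stays at 0.47 and Pklr is at −1.38.

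In TPM, which corrects for gene length and so allows genes to be compared, Pck1 stood first with 768 ± 218 TPM in Dicer LKO and 768 ± 130.0 TPM in controls (SD, n = 3 each). Gapdh followed at a mean of 503 TPM over all 6 libraries, then Fbp1 at 329, Ldha at 299 and Tpi1 at 149.6 TPM. Neighbours in that order were often closer than their spread, as for Tpi1 and the fructokinase gene Khk (143 TPM). At the low end, 9 members averaged under 2 TPM, among them all 3 hexokinase genes, Pfkp, Pygb, Slc2a1 and Slc16a3. Together the 38 genes took 0.295% to 0.351% of TPM in Dicer LKO and 0.295% to 0.374% in controls, ranges that overlap.

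**Figure D2:**
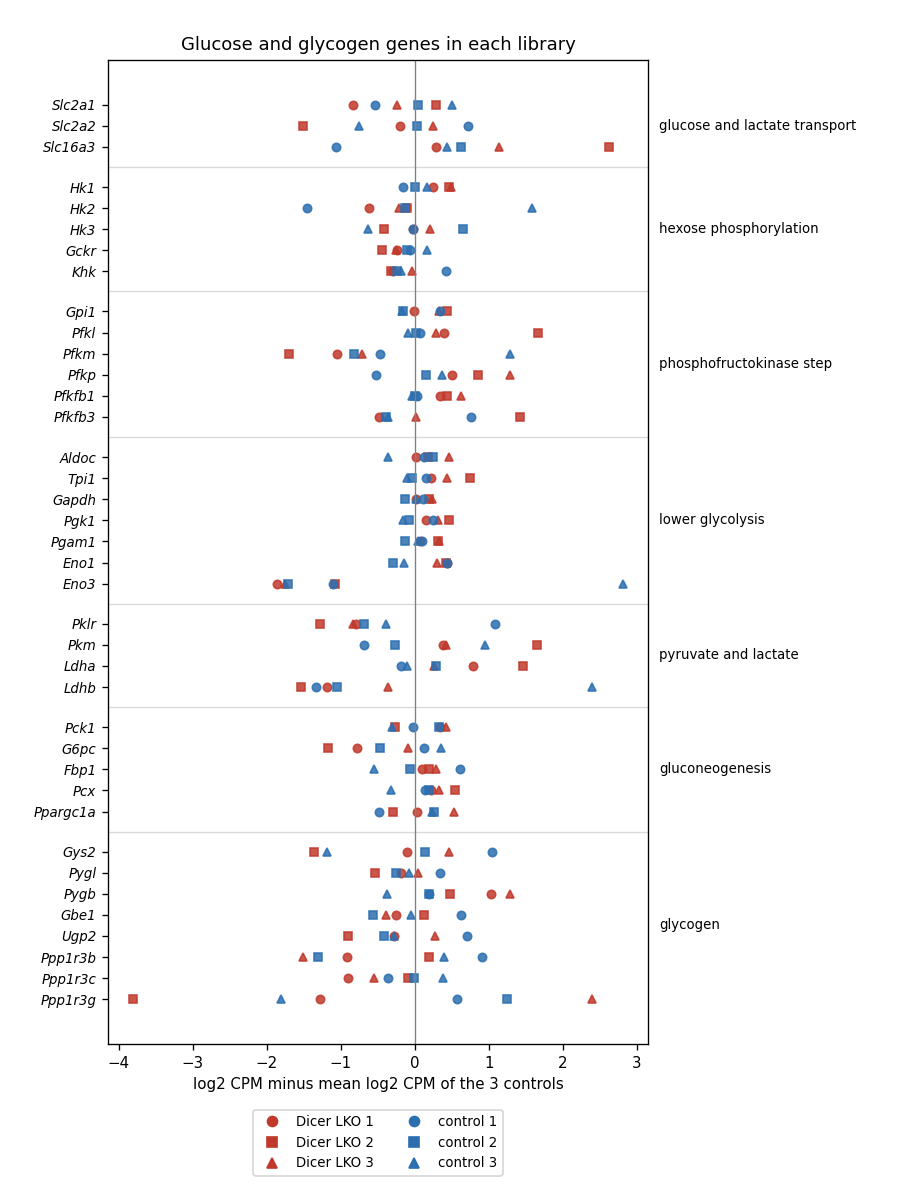
Each point is the log2 CPM of a gene in 1 library minus the mean log2 CPM of the 3 controls, for Dicer LKO (red) and control (blue) libraries, with genes grouped by role. Dicer LKO replicate 2 and control replicate 3 lie farthest out for many genes, and red and blue points separate for 9 of the 38.

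Glucose and lactate carriers showed no shared direction. Slc2a2, the main hexose carrier of hepatocytes, stood at 307, 124 and 417 CPM across Dicer LKO samples and 579, 359 and 209.5 CPM in the controls. Dicer LKO replicate 2 held the lowest level of the 6, and the other Dicer LKO libraries lay inside the control range (log2 fold change −0.44, SE 0.52, 95% interval −1.67 to 0.79). The value was −0.037 without that library and −0.0077 without control replicate 1. Slc2a1, the blood-brain barrier carrier, was at 4.49, 9.72 and 6.73 CPM in Dicer LKO and 5.50, 8.21 and 11.3 CPM in controls. Its groups overlapped, and the log2 fold change of −0.25 turned to 0.044 without control replicate 3. Slc16a3, which exports lactate from glycolytic cells, was rare, with 0.688, 3.48 and 1.23 CPM in Dicer LKO and 0.270, 0.864 and 0.765 CPM in controls from 155 counts in all. Its value of 1.51 (SE 0.68, edgeR adjusted p = 0.254) became 0.66 without Dicer LKO replicate 2.

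Among the genes that phosphorylate hexoses, Hk1 was the member with separated groups in the upward direction and Gckr the member with separated groups in the downward direction. Hk1, the hexokinase that most tissues share, had 6.10, 7.05 and 7.21 CPM across Dicer LKO samples and 4.6, 5.14 and 5.74 CPM in the controls (log2 fold change 0.40, SE 0.18, edgeR adjusted p = 0.244). Gckr encodes the protein that holds glucokinase inactive in the hepatocyte nucleus. It was at 119, 103 and 118 CPM across Dicer LKO samples and 134, 131 and 157 CPM in the controls, so each Dicer LKO value was below each control value, by a log2 fold change of −0.31 with an SE of 0.14 and an edgeR adjusted p of 0.262, and of −0.20 without control replicate 3. Khk, which phosphorylates fructose, was at 162 ± 17.7 CPM in Dicer LKO and 192 ± 52.3 CPM in controls (SD, n = 3 each), and its groups overlapped. Hk2, the insulin-responsive hexokinase of muscle and fat, was at 3.39, 4.81 and 4.46 CPM across Dicer LKO samples and 1.89, 4.75 and 15.6 CPM in the controls. The high control was replicate 3, and without it the value of −0.79 became 0.36. Hk3, a hexokinase of myeloid cells, had 3.76 to 5.78 CPM in Dicer LKO and 3.25 to 7.88 CPM in controls. Macrophage markers were higher in Dicer LKO for 2 of 12 genes by edgeR, and all 12 had positive values. Their summed level was 452 to 603 CPM in Dicer LKO and 233 to 499 CPM in controls, and that of 10 neutrophil markers, none of which was called, was 37.1 to 92.7 CPM in Dicer LKO and 3.32 to 25.7 CPM in controls. No marker of either list was at 0 throughout a group, and their part in the values of Hk3 and Hk1 was not tested.

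The phosphofructokinase step, the committed step of glycolysis, held 3 of the 7 members that lay above the controls in every Dicer LKO library. Pfkfb1, the liver form of the bifunctional enzyme that makes and removes the phosphofructokinase activator fructose 2,6-bisphosphate, stood at 20.4, 21.6 and 24.7 CPM across Dicer LKO samples and 16.4, 16.1 and 15.6 CPM in the controls. The control values spanned less than 1 CPM and all lay below the Dicer LKO values. Its difference was a log2 fold change of 0.47 (95% interval 0.17 to 0.77, edgeR adjusted p = 0.106), and it was 0.47 without control replicate 3. Pfkfb1 lies on chromosome X, 150588229 to 150643878, plus strand (GRCm38) and overlaps Apex2 on the other strand, so that reads of the pair are not separated with certainty. Pfkl, the liver phosphofructokinase, was at 36.5, 87.7 and 33.8 CPM across Dicer LKO samples and 29.3, 28.0 and 26.1 CPM in the controls. Dicer LKO replicate 2 stood well above the rest, while replicates 1 and 3 exceeded the highest control by less (log2 fold change 0.92, SE 0.37, edgeR adjusted p = 0.222). Pfkp, the platelet form, had 4.04, 5.15 and 6.93 CPM across Dicer LKO samples and 1.98, 3.17 and 3.70 CPM in the controls, with a log2 fold change of 0.87 (SE 0.30, edgeR adjusted p = 0.160).

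Pfkm, the muscle phosphofructokinase, ran the other way. It stood at 10.2, 6.53 and 12.9 CPM across Dicer LKO samples and 15.3, 12 and 51.4 CPM in the controls, where control replicate 3 exceeded every other library. The value of −1.40 (SE 0.61) shrank to −0.44 without that library, and the groups overlapped, since Dicer LKO replicate 3 lay above control replicate 2. Pfkfb3, the inducible isoform found in proliferating and glycolytic cells, varied more within groups than between them, with 11.1, 41.7 and 15.8 CPM across Dicer LKO samples and 26.2, 11.8 and 12.1 CPM in the controls. The isomerase Gpi1, which precedes this step, was at 125 ± 19.4 CPM in Dicer LKO and 106 ± 22.6 CPM in controls (SD, n = 3 each) and its groups overlapped.

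The enzymes from aldolase to enolase, which work in both directions, had positive values for 6 of 7 members, none above 0.48 on the log2 scale. Tpi1, which interconverts the triose phosphates, was at 280.5, 402 and 325 CPM across Dicer LKO samples and 267, 233 and 223 CPM in the controls and was the member of this step with separated groups (log2 fold change 0.48, SE 0.19, edgeR adjusted p = 0.208). Its interval of 0.037 to 0.92 leaves out a change of 1 on the log2 scale. Gapdh, often used as a loading control, was at 852 ± 63.1 CPM in Dicer LKO and 769.9 ± 67.6 CPM in controls (SD, n = 3 each) with a log2 fold change of 0.15 and an interval of −0.29 to 0.58. The value was slightly negative, −0.019, on the log2(TPM + 1) scale. The log2 fold changes of the kinase Pgk1, the mutase Pgam1 and the enolase Eno1 were 0.30, 0.24 and 0.35, with SEs of 0.18, 0.14 and 0.22 and overlapping groups. Aldoc, the brain aldolase, was at 10.8 to 14.7 CPM in Dicer LKO and 8.29 to 12.7 CPM in controls. Eno3, the muscle enolase, formed the exception to the positive values and is described with the muscle transcripts. Several of these genes have processed pseudogenes elsewhere in the genome, and the division of reads among such copies is uncertain.

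At the end of glycolysis the lactate dehydrogenase gene Ldha was higher by DESeq2 but not by edgeR. Ldha, whose product turns pyruvate into lactate, had 713, 1139.5 and 497 CPM across Dicer LKO samples and 365, 505 and 385 CPM in the controls. Dicer LKO replicates 1 and 2 lay above all controls and replicate 3 just below control replicate 2. On the log2 scale the difference was 0.90 (SE 0.32), and its adjusted p was 0.166 by edgeR and 0.0437 by DESeq2. Its promoter is shown because Ldha is 1 of the 2 members that DESeq2 called and because it holds the short element ACGTG more often than that of any other member. ACGTG is the core of the motif bound by hypoxia-inducible factors, and CACGTG, which contains it, is the E-box bound by MYC, USF and, in pairs, the glucose-responsive factor encoded by Mlxipl. The window runs from 250 bases before to 50 bases after the first of 2 starts that RefSeq lists on build GRCm38.p6. Matches to ACGTG on either strand are in capitals, and where 2 matches overlap they spell CACGTG.
Ldha (chr7:46845554-46845853, plus strand): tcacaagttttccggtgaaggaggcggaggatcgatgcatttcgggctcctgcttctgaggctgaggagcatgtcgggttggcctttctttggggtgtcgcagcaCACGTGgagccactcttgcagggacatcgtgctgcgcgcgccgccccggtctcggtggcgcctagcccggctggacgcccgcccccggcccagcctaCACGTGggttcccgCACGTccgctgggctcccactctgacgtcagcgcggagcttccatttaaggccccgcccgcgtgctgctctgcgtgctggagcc

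The Ldha window held 5 matches to ACGTG counted on both strands, 4 of which pair up as 2 copies of CACGTG. Its second listed start had none. Over the members, 21 of the 36 genes with a listed promoter (58.3%) held ACGTG in at least 1 window, where 28.7% of the 10145 tested genes with a listed promoter did. CACGTG was found for 6 members (16.7%), beside 11.6% of tested genes. GTAAACA, the core of the forkhead (FOXO) motif, was found on either strand for 1 member, Aldoc (2.78%, beside 3.34%). These are matches of letters in a short window, and a gene with several listed starts had more windows to hold one. Of the 7 members above all controls in Dicer LKO, Hk1, Pygb and Pcx held ACGTG and Pfkfb1, Pfkp, Tpi1 and Pfkl did not.

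Pklr, the pyruvate kinase of liver and red cells, was the largest difference among members whose groups stayed apart. It stood at 73.0, 51.7 and 70.4 CPM across Dicer LKO samples and 268, 78.0 and 96.0 CPM in the controls. Control replicate 1 held more than the other controls, and control replicate 2 exceeded the highest Dicer LKO library by little. The means were 65.0 ± 11.6 CPM in Dicer LKO and 147 ± 105 CPM in controls (SD, n = 3 each), the log2 fold change was −1.18 (SE 0.48, 95% interval −2.34 to −0.025) and the edgeR adjusted p was 0.230. Without control replicate 1 the log2 fold change was −0.42 (adjusted p = 0.237). Pklr lies on chromosome 3, 89136142 to 89146784, plus strand (GRCm38) and overlaps Hcn3 on the other strand. Mlxipl, the glucose-responsive factor for which Pklr is a classic target in liver, was named after its values were seen. It had 76.0, 62.8 and 65.4 CPM across Dicer LKO samples and 127, 126 and 243 CPM in the controls (log2 fold change −1.28, SE 0.27, edgeR adjusted p = 0.0717). Control replicate 3 was its highest library. The groups of Mlxipl did not overlap either, as was so for 28.0% of all genes tested. Its part in the Pklr values was not tested.

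Pkm, the pyruvate kinase of most other tissues and of fetal liver, had 32.9, 79.8 and 33.8 CPM across Dicer LKO samples and 15.7, 21.0 and 49.0 CPM in the controls. All Dicer LKO libraries exceeded control replicates 1 and 2, while control replicate 3 lay above Dicer LKO replicates 1 and 3. The log2 fold change was 0.78 (SE 0.55, edgeR adjusted p = 0.475), and 1.43 (SE 0.47, adjusted p = 0.241) without control replicate 3. Summed markers of other liver cells were higher in Dicer LKO. The summed level of 10 bile duct markers was 184 to 320.3 CPM in Dicer LKO and 59.4 to 80.5 CPM in controls (3 of 9 tested were called higher), and that of 12 stellate cell and fibroblast markers was 710.1 to 728 CPM in Dicer LKO and 464 to 534 CPM in controls (3 of 12 called higher). Single markers went the other way. Log2 fold changes were negative for 2 of the 9 tested bile duct markers (lowest −0.72) and 2 of the 12 stellate cell and fibroblast markers (lowest −2.32). No marker of either list was at 0 throughout a group, and their part in the Pkm values was not tested.

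The 5 gluconeogenic genes had log2 fold changes between −0.65 and 0.35, and none passed the test. Pck1, which makes phosphoenolpyruvate, was at 2989, 1969.8 and 3173 CPM across Dicer LKO samples and 2324, 2966 and 1917 CPM in the controls, with interleaved groups and a log2 fold change of 0.17 (SE 0.28). Fbp1, which removes a phosphate from fructose 1,6-bisphosphate, was at 621 ± 40.6 CPM in Dicer LKO and 575 ± 236 CPM in controls (SD, n = 3 each), and its value of 0.11 became −0.095 without control replicate 3. G6pc, the catalytic subunit that frees glucose in the last step, had 233, 178 and 375 CPM across Dicer LKO samples and 435, 288 and 508 CPM in the controls. Dicer LKO replicates 1 and 2 lay below all controls and replicate 3 inside their range (log2 fold change −0.65, SE 0.32, edgeR adjusted p = 0.298). The mitochondrial carboxylase gene Pcx, which feeds the pathway from pyruvate, was at 549, 686 and 592 CPM across Dicer LKO samples and 519.7, 538 and 376 CPM in the controls, where the lowest Dicer LKO value was just above the highest control value (log2 fold change 0.35, SE 0.21, edgeR adjusted p = 0.390, and 0.23 without control replicate 3). Ppargc1a, a coactivator that raises gluconeogenic transcription in fasting, was at 10.4 to 18.5 CPM in Dicer LKO and 9.10 to 15.3 CPM in controls, and its log2 fold change was 0.095 (SE 0.27).

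In glycogen metabolism, 6 of 8 members had negative values, none of which passed the test. The liver glycogen synthase Gys2 was at 156, 65.4 and 232 CPM across Dicer LKO samples and 346, 185 and 73.8 CPM in the controls, with 1 low library in each group (−0.42 on the log2 scale, SE 0.66). The value was 0.22 without control replicate 1. Ugp2, which makes UDP-glucose, was at 247 ± 97.8 CPM in Dicer LKO and 307 ± 140.1 CPM in controls (SD, n = 3 each), and the branching enzyme Gbe1 at 102 ± 19.3 CPM in Dicer LKO and 121 ± 49.7 CPM in controls (SD, n = 3 each). Both values turned positive without control replicate 1, to 0.13 and 0.13. The liver phosphorylase Pygl, which releases glucose units from glycogen, was at 361 ± 71.4 CPM in Dicer LKO and 422 ± 93.4 CPM in controls (SD, n = 3 each) with a log2 fold change of −0.23 (95% interval −0.77 to 0.31), and of −0.035 without control replicate 1. Of the subunits that bring protein phosphatase 1 to glycogen, Ppp1r3b and Ppp1r3g varied widely within groups. The log2 fold change was −0.83 (SE 0.66) for Ppp1r3b and −0.51 (SE 0.25) for Ppp1r3c. They were −0.72 and −0.28 without control replicate 3. Ppp1r3b had 86.5, 186 and 57.2 CPM across Dicer LKO samples and 306, 65.6 and 214 CPM in the controls, Ppp1r3c had 27.1, 47.2 and 34.4 CPM across Dicer LKO samples and 39.3, 49.9 and 65.8 CPM in the controls, and Ppp1r3g had 0.550, 0.0953 and 7.01 CPM across Dicer LKO samples and 1.98, 3.17 and 0.383 CPM in the controls. Ppp1r3g was low in every group, down to 2 counts in a library, and its single high value was that of Dicer LKO replicate 3. Its log2 fold change of 0.46 (SE 1.37) became −2.50 without that library.

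Pygb, the brain form of glycogen phosphorylase, was, beside the rare Ppp1r3g, the glycogen member with a positive value. It stood at 9.86, 6.67 and 11.8 CPM across Dicer LKO samples and 5.50, 5.47 and 3.70 CPM in the controls, and every Dicer LKO library lay above every control. The means were 9.43 ± 2.57 CPM in Dicer LKO and 4.89 ± 1.03 CPM in controls (SD, n = 3 each). On the log2 scale the difference was 0.94 (SE 0.26, 95% interval 0.35 to 1.54), and its adjusted p was 0.104 by edgeR and 0.0290 by DESeq2. On the length-corrected scale the groups overlapped, with 2.48, 1.28 and 2.85 TPM across Dicer LKO samples and 1.08, 1.03 and 1.82 TPM in the controls. Pygb lies on chromosome 2, 150786735 to 150831758, plus strand (GRCm38). Its promoter, 250 bases before to 50 bases after the start that RefSeq lists on GRCm38.p6, is shown because Pygb had the smallest adjusted p of the members. The ACGTG match, on the reverse strand, is in capitals.
Pygb (chr2:150786546-150786845, plus strand): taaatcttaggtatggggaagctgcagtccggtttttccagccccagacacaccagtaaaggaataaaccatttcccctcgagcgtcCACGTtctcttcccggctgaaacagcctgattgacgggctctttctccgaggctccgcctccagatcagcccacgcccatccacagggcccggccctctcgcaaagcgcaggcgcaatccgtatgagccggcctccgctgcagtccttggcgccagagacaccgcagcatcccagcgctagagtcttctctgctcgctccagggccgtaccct

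Isozymes that muscle uses were high in control replicate 3. Eno3 stood at 1.51, 2.62 and 1.63 CPM across Dicer LKO samples and 2.57, 1.68 and 39.0 CPM in the controls, so this library held 19.4 times the mean of the other 5. Ldhb, the heart-type lactate dehydrogenase, was at 1.70, 1.33 and 3.03 CPM across Dicer LKO samples and 1.53, 1.87 and 20.3 CPM in the controls, which for control replicate 3 is 10.7 times the mean of the others. The ratios for Pfkm and Hk2 were 4.52 and 4.03. The skeletal muscle markers Acta1 and Ckm were at 422 and 246 CPM in it and at 0.288 CPM or less and 0.384 CPM or less in the other libraries. Heart muscle markers, 12 in number, summed to 0.762 to 12 CPM in Dicer LKO and 13.7 to 53.9 CPM in controls, the highest again in control replicate 3, and Sln among them was at 0 in the other 5 libraries. Without that library, the log2 fold changes of the muscle isozymes were −0.12 instead of −2.89 for Eno3, 0.27 instead of −1.94 for Ldhb, −0.44 instead of −1.40 for Pfkm and 0.36 instead of −0.79 for Hk2.

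**Figure D3:**
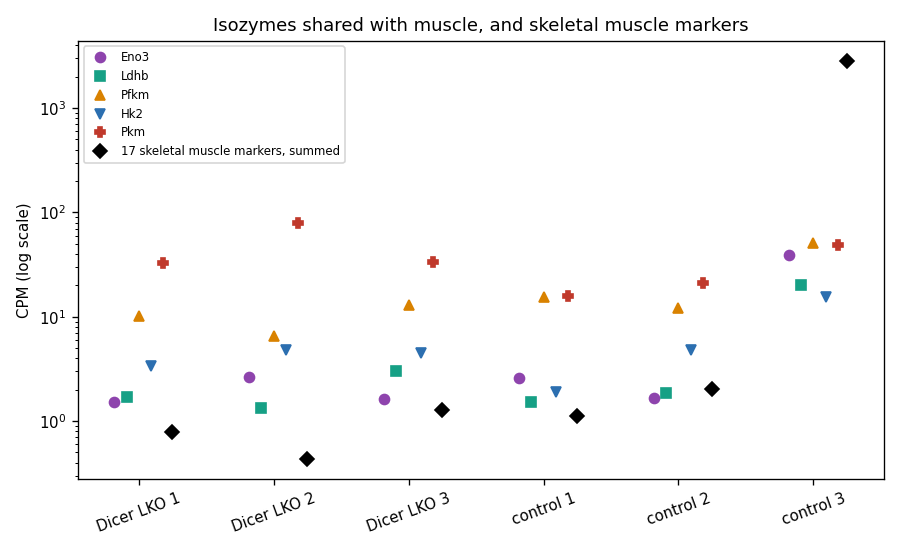
CPM of 5 isozyme genes and summed CPM of 17 skeletal muscle markers (black diamonds) in each of the 6 libraries, on a log axis. The markers reach 2856 CPM in control replicate 3 and 2.02 CPM or less elsewhere, and Eno3, Ldhb, Pfkm and Hk2 are highest in that library, while Pkm is highest in Dicer LKO replicate 2.

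The balance of isozymes within a step was computed from TPM in each library, as 11 shares over 7 steps. The groups did not overlap for 3 of them. Of the summed TPM of Hk1, Hk2 and Hk3, Hk1 made up 37.6, 41.3 and 43.6% in the Dicer LKO libraries and 30.9, 22.9 and 20.1% in the controls. Of the summed TPM of Pygl and Pygb, Pygb made up 2.54, 1.78 and 2.40% in the Dicer LKO libraries and 0.713, 1.07 and 1.56% in the controls, so that Pygl dominated in every library. Of the summed TPM of Pfkl, Pfkm and Pfkp, Pfkm made up 22.6, 7.80 and 27.9% in the Dicer LKO libraries and 37.8, 32.8 and 66.2% in the controls, and the controls other than replicate 3 were above all Dicer LKO libraries too. By an exact permutation test, two-sided, each of these 3 shares had p = 0.1, below which groups of 3 cannot go, and 0.367 after Benjamini-Hochberg adjustment over the 11. Of the summed TPM of Pklr and Pkm, Pkm made up 29.3, 57.9 and 28.3% in the Dicer LKO libraries and 5.05, 19.3 and 34.6% in the controls, with means of 38.5 ± 16.8% in Dicer LKO and 19.7 ± 14.8% in controls (SD, n = 3 each, exact permutation p = 0.3). Control replicate 3, with its muscle transcripts, held the highest control share of Pkm. Of the summed TPM of Slc2a1 and Slc2a2, Slc2a1 made up 1.86, 9.78 and 2.32% in the Dicer LKO libraries and 1.27, 3.01 and 6.08% in the controls, with overlapping groups. The shares of Ldhb and Eno3 were 0.555 ± 0.418% and 0.974 ± 0.279% in Dicer LKO (SD, n = 3), and 0.853% and 1.29% as the mean of control replicates 1 and 2.

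**Figure D4:**
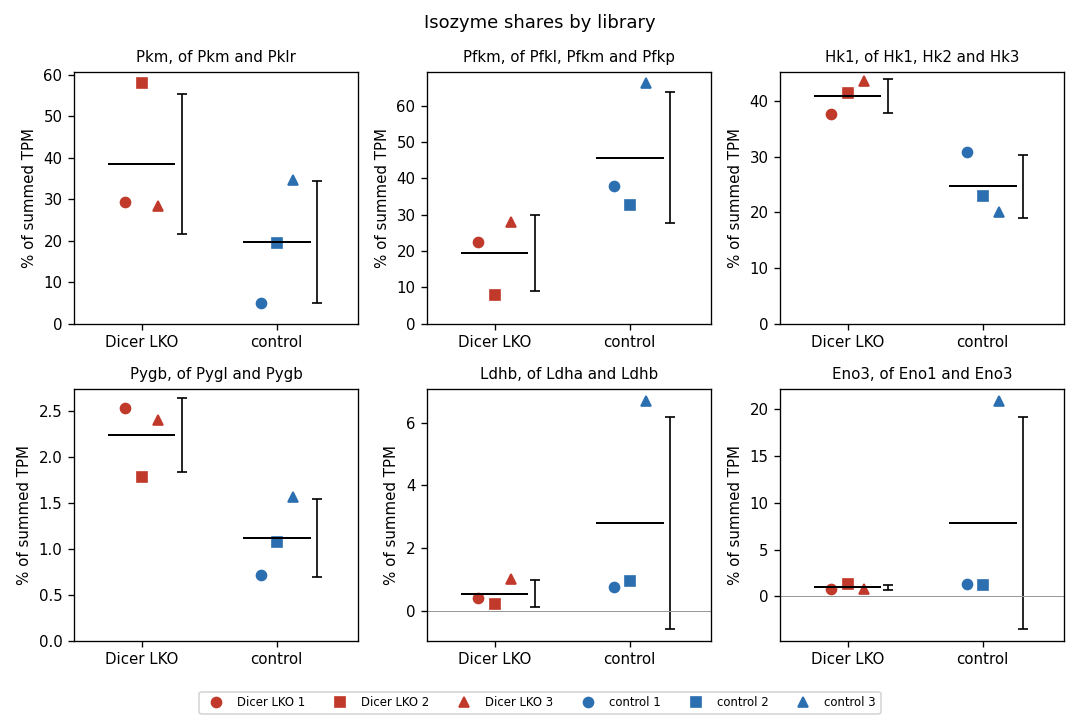
Share of the named isozyme in the summed TPM of its step, in percent, for the 3 Dicer LKO (red) and 3 control (blue) libraries. Black lines are group means and the bars beside them ± 1 SD. The Hk1 and Pygb points are higher and the Pfkm points lower in all Dicer LKO libraries than in any control, and control replicate 3 sets the control means of Ldhb and Eno3.

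The members varied within groups in every library. Dicer LKO replicate 2 held the highest value of the 6 for 9 members and the lowest for 11, and control replicate 3 held 8 and 11. Dicer LKO replicate 3 held 10 of the highest and 1 of the lowest values, control replicate 1 held 10 and 7, and control replicate 2 held 1 and 4. Dicer LKO replicate 1 held none of the highest and 4 of the lowest values. In Dicer LKO replicate 2, 13 members lay more than 1 on the log2 scale from the control mean, beside 5 and 6 in the other two Dicer LKO libraries and 6, 4 and 6 among the controls. Each control is itself part of that mean, so the control counts are not comparable with those of Dicer LKO. The mean also holds control replicate 3 with its muscle transcripts. Eno3, Ldhb and Pfkm are among the members counted in Dicer LKO replicates 1 and 2. Pfkl, Pkm, Ldha, Pfkfb3 and Slc16a3 were high in Dicer LKO replicate 2, and Slc2a2, Gys2, G6pc, Pfkm and Pklr were low. Without it, the log2 fold changes of Pfkl, Ldha and Pkm were 0.38, 0.57 and 0.26, against 0.92, 0.90 and 0.78 with it.

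The members were also divided into 12 liver isozymes and 12 isozymes of other tissues. Of the liver isozymes, 8 had negative and 4 positive values, with a median log2 fold change of −0.28. Of the isozymes of other tissues, 5 had negative and 7 positive values, with a median of 0.30. Without control replicate 3 the medians were −0.28 and 0.33, and the median over all genes tested was −0.013. Hk2, Ldhb and Slc2a1 turned positive without that library (0.36, 0.27 and 0.044). This left Hk3 and Pfkm negative among the isozymes of other tissues. Among the liver isozymes, Fbp1 turned negative (−0.095). By edgeR none of the 24 was called, and by DESeq2, which gave no adjusted p for Ldhb, only Pygb was. These medians therefore describe the lists and no more.

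Because Dicer makes microRNAs, the longest annotated 3′ untranslated regions of the members were searched for perfect matches to positions 2 to 8 of 6 mature microRNAs, the seed by which a microRNA pairs with its targets. The microRNAs miR-122-5p and miR-143-3p were planned too but were not searched. A match to let-7a-5p was found in 4 of 38 members (10.5%) and 10.5% of tested genes, and a match to miR-29a-3p in 3 of 38 members (7.89%) and 15.7% of tested genes. For miR-192-5p the counts were 3 of 38 members (7.89%) and 7.15% of tested genes, for miR-33-5p 3 of 38 members (7.89%) and 7.62% of tested genes, for miR-30a-5p 4 of 38 members (10.5%) and 16.2% of tested genes and for miR-103-3p 4 of 38 members (10.5%) and 13% of tested genes. The let-7a and miR-29a matches are shown, let-7a because Pfkfb1 and Pcx, with separated groups, are among its 4 members, and miR-29a because its matches fall in the glucose carrier, the last enzyme and the coactivator of glucose release. The choice was made after the values were seen. The mature sequences are those of RefSeq (GRCm38.p6) with the seed in capitals, and the members' stretches come from GENCODE M21 transcripts (GRCm38), 24 bases each, 5′ to 3′, with the match in capitals.
let-7a-5p: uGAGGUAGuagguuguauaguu
Pfkfb1 (chrX:150643717-150643740, plus strand): cctgagtgtgccCTACCTCcagag
Pcx (chr19:4621584-4621607, plus strand): ggcttagggcttCTACCTCtgggg
Slc2a2 (chr3:28730444-28730467, plus strand): ggacatcctttcCTACCTCagcag
Aldoc (chr11:78326788-78326811, plus strand): acataccaaagtCTACCTCcatgt
miR-29a-3p: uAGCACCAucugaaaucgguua
Slc2a2 (chr3:28729759-28729782, plus strand): ccttggatggagTGGTGCTtcctc
Slc2a2 (chr3:28731289-28731312, plus strand): tttctgaatgatTGGTGCTgctgc
G6pc (chr11:101377511-101377534, plus strand): gcaactgtttgtTGGTGCTtttgt
Ppargc1a (chr5:51454860-51454883, minus strand): tggtacccgaacTGGTGCTttaga

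The members with a let-7a match had log2 fold changes of 0.47 (Pfkfb1), 0.35 (Pcx), −0.44 (Slc2a2) and 0.21 (Aldoc). Those with a miR-29a match stood at −0.44 (Slc2a2, with 2 matches), −0.65 (G6pc) and 0.095 (Ppargc1a). The members with a miR-30a match were Slc2a2 again, Gpi1 (0.24), Pgam1 (0.24) and Ppargc1a. A miR-192 match was held by Pcx too, and by Hk2 (−0.79) and Ldhb (−1.94), which turned positive without control replicate 3. For miR-33 they were Aldoc, Ppp1r3c (−0.51) and Ppargc1a, and for miR-103 Hk2, Pfkfb3 (0.45), Slc16a3 (1.51) and Ppp1r3c. None of these members was called, and a match is a run of letters, not a shown site.

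Around the members, 91 of 95 further genes of glucose metabolism in 6 lists could be tested, and 1 of them was called by edgeR, where 1.29% of all genes were. This was Bpgm, which makes and removes 2,3-bisphosphoglycerate, a product of a side branch of glycolysis that is abundant in red cells. It was at 18.3, 24.1 and 22.4 CPM across Dicer LKO samples and 9.33, 9.75 and 9.50 CPM in the controls, with all Dicer LKO libraries above all controls (log2 fold change 1.18, SE 0.15, edgeR adjusted p = 0.0196). The call was lost without Dicer LKO replicate 3 (adjusted p = 0.0780), control replicate 2 (0.0546) or control replicate 3 (0.0634), while the log2 fold change stayed between 1.14 and 1.29 as each library was left out. On the log2(TPM + 0.1) and log2(TPM + 1) scales it also missed the threshold. These settings were applied to Bpgm after its value was seen. Red blood cell markers were higher in the same libraries, with a summed level of 1076 to 2062 CPM in Dicer LKO and 197 to 278 CPM in controls. Of the 10 markers, 7 were tested, 6 were called higher and none was at 0 throughout a group. Their part in the Bpgm value was not tested.

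In the other 5 lists, 0 genes were called: 11 gluconeogenesis genes, 21 glycogen genes, 12 genes of other hexoses, 8 pentose phosphate genes and 17 regulators were tested. Each of these 5 lists is described by its 2 largest values, none of which passed. Among 17 regulators, 12 had negative values and 7 had an unadjusted edgeR p under 0.05, where 21.0% of all genes did. Over all 6 lists the count was 19 of 91. Igfbp1, a binding protein that insulin represses through FOXO1, had 98.7, 539 and 299 CPM across Dicer LKO samples and 16.1, 57.3 and 43.8 CPM in the controls, and Srebf1, which drives lipogenic and glycolytic genes under insulin, had 148, 59.1 and 141 CPM across Dicer LKO samples and 414, 227 and 214 CPM in the controls. Neither pair of groups overlapped, and the edgeR adjusted p-values were 0.108 and 0.146, with log2 fold changes of 3.0 (SE 0.75) and −1.29 (SE 0.41). Among the glycogen genes, the muscle phosphorylase Pygm and the muscle phosphatase subunit Ppp1r3a had values of −3.98 and −3.44, and of 0.19 and 0.0086 without control replicate 3. Of the gluconeogenic list, the glycerol phosphate dehydrogenase Gpd1 was at −0.39 and the glucose 6-phosphate carrier Slc37a4 at 0.36, and without control replicate 3 at −0.25 and 0.023. The sorbitol dehydrogenase Sord and the fructose carrier Slc2a5 stood at −0.58 and −0.54, or −0.68 and −0.84 without that library. The pentose phosphate enzymes G6pdx and Pgd stood at 0.72 and −0.40, or 0.60 and −0.18 without it.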

How the data were processed

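RNA from whole liver was sequenced in 3 Dicer LKO and 3 control samples, grouped by their titles. Per the file headers, which are those of RSEM, the deposited values are the authors' expected count of a gene, an estimate without normalization, and its TPM, which corrects for effective length. CASAVA, Bowtie and the human build hg19 are listed, per the submitters' processing notes, while the identifiers are those of mouse genes. For the annotation and strandedness, nothing is given in the sources used here. The deposited table of the whole series repeated the expected counts (100% of values equal within 0.006) and was not used.

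Expected counts were rounded (96.0% to 96.5% were whole), filtered with filterByExpr, scaled with TMM factors into CPM and fitted with the quasi-likelihood method (edgeR 4.0.16, R 4.3.3) across 14314 genes, with genotype as the only term and Benjamini-Hochberg adjustment over all of them. Each SE was taken from the fold change and its F statistic, and 95% intervals use the degrees of freedom of the test. DESeq2 1.42.0, limma 3.58.1 on TPM, other scalings, no filter, a replicate block and leaving out each library were alternatives. Coordinates are from GENCODE M21 (GRCm38), which matched 99.56% of identifiers.

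The members and lists were chosen with earlier results of these data known. Members described in full were those called, those with separated groups and an absolute log2 fold change of at least 1, and the isozymes of each step. Of the further lists, up to 4 called genes were named, or, where none was called, the 2 with the largest absolute log2 fold change at an average log2 CPM of at least 1. Nothing in the labels shows that the samples are separate animals, so the p-values reflect spread among samples, which may not be spread among animals. Without strand information, reads of the 19 members that overlap a gene on the other strand are not separated with certainty. Libraries of a group were never identical, and their counts differed by a chi-square of 26.1 to 184 per gene.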

Additional observations from a re-analysis of the deposited data

How the results depend on the processing

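No member was called by edgeR under any alternative scaling, without a filter, with the replicate block, without mitochondrial genes or without any 1 library, nor by limma on either TPM scale; DESeq2 called 2. Over all genes, the count of 185 became 1160 with DESeq2, 103 with library totals, 74 and 67 with limma on log2(TPM + 0.1) and log2(TPM + 1), 422 without a filter and 23 to 389 without 1 library, the lowest without control replicate 3. The replicate numbers did not pair the samples (correlations of same-numbered deviations 0.11, 0.065 and −0.096), and the fit with them as a block called 245 genes and 0 members. Members with separated groups numbered 4 on both TPM scales, 6 with library totals and 10 to 16 without 1 library, where fewer libraries make separation easier. The share of all genes that separated was not computed in these settings, so the counts are not read as a result about the members. The members' median of 0.13 was −0.074 and −0.024 on the TPM scales and −0.040 to 0.22 without 1 library. Library totals moved the median of all genes to −0.13 and the TPM scales to −0.12 and −0.086, so changes there are read relative to these shifts.

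Of 530 member values under the alternatives, 24 turned sign, in 14 members, none of them called, and the cause was not tested except where a library was left out. On the log2(TPM + 0.1) and log2(TPM + 1) scales, Pfkfb3 was at −0.12 and −0.093, Gapdh at −0.019 and −0.019, Pck1 at −0.030 and −0.030 and Ppp1r3g at −0.47 and −0.0096. Ppp1r3g was at −0.79 with the replicate block and Ppargc1a at −0.019 with library totals. As each library was left out, Hk2 ranged from −1.25 to 0.36, Hk3 ranged from −0.39 to 0.26, Pfkfb3 ranged from −0.27 to 0.94, Ldhb ranged from −2.43 to 0.27, Slc2a1 ranged from −0.52 to 0.044, Fbp1 ranged from −0.095 to 0.48, Gys2 ranged from −0.86 to 0.22, Gbe1 ranged from −0.45 to 0.13, Ugp2 ranged from −0.64 to 0.13, Ppp1r3g ranged from −2.50 to 1.11, Ppargc1a ranged from −0.15 to 0.31 and Khk from −0.34 to 0.0022. The difference in share, Dicer LKO minus control in percentage points, ranged from −1.36 to 2.60 for Slc2a1, −23.9 to 1.99 for Hk2 and −15.9 to 4.52 for Hk3 as each library was left out; those of the other 8 shares kept their direction, also with expected counts in place of TPM. Depth limits Slc16a3 and Ppp1r3g, with 155 and 306 counts over all 6 libraries.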
